A study of Homo sapiens with 4 samples.

Results

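The genes described here are 37 genes of DNA double-strand break repair and the checkpoint that breaks set off, taken by symbol from a deposited table of 58825 genes. All 37 symbols were found, each in a single row. They were grouped into 14 genes of homologous recombination, 5 of end joining, 10 of the Fanconi pathway and 8 of checkpoint and break signalling. All RNA came from the ARP1 cell line, which was grown from a multiple myeloma, a cancer of plasma cells. Cells with RFWD2 overexpression (2 libraries, called RFWD2 cells) were set against wild type ARP1 cells (2 libraries, called control cells). RFWD2 is the former symbol of COP1, a ubiquitin ligase that tags its substrates, among them several transcription factors, for breakdown. The promoter and vector of the overexpression, its duration and the number of clones were not stated, nor was whether libraries came from separate cultures, so the p-values reflect how far these libraries vary, and that variation may be technical.

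A double-strand break cuts both strands of the DNA. End joining seals the ends directly, with Ku holding them, DNA-PKcs bringing them together and ligase IV closing them, and it works throughout the cell cycle. Homologous recombination trims the ends and copies the sister chromatid, and is therefore used in S and G2 phase. The Fanconi pathway handles links between the strands and hands the resulting breaks to recombination. The kinases ATM and ATR signal the damage to CHK2 and CHK1, which hold the cell cycle. In plasma cell cancers these pathways matter because many drugs used there, such as alkylating agents, act by damaging DNA.

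COP1 itself, the check of the labels, was at 13.9 and 13.5 FPKM in RFWD2 libraries 2 and 1, against 8.93 and 5.99 FPKM in control libraries 2 and 1. FPKM is the number of fragments scaled to transcript length and sequencing depth, so that genes can be set side by side. It does not scale for the GC content of a transcript, with which the difference between library numbers ran, as given below. Both RFWD2 libraries were higher than both control libraries, but the fitted log2 change of 0.86 had a 95% interval from -0.03 to 1.75. Whether introduced sequence was counted was not stated. Library totals were 70322496 and 62143098 counts with overexpression and 70713792 and 70149131 in wild type. The plasma cell genes SDC1, IRF4, XBP1 and PRDM1 were at 52.7 FPKM or more in every library. The 10 plasma cell markers summed to 1905 and 1737 FPKM in RFWD2 libraries 2 and 1, against 2262 and 1939 FPKM in control libraries 2 and 1. By counts scaled to library size, both RFWD2 libraries lay below both controls for 3 of the 10, beside 10.6% of all genes tested. They lay above both for 0, beside 10.7%. Summed markers of T cells stayed at 1.11 FPKM or less and of fibroblasts at 1.09 or less. Those of monocytes stayed at 2.06 or less and of erythroid cells at 7.41 or less. Some of these low markers were higher in the RFWD2 cells: fibroblast markers summed to 0.616 and 1.09 FPKM in RFWD2 libraries 2 and 1, against 0.137 and 0.357 FPKM in control libraries 2 and 1, with COL1A2, COL3A1, DCN, LUM and THY1 at 0 throughout. Monocyte markers summed to 2.04 and 2.06 against 1.28 and 1.28 FPKM, with CSF1R at 1.23 and 1.20 against 0.125 and 0.411 FPKM and LYZ, FCGR3A, S100A8 and S100A9 at 0. CD68, the other monocyte marker that passed the filter, was lower in the RFWD2 cells, at 0.814 and 0.857 against 1.16 and 0.873 FPKM. The part of such cells in the levels below was not tested. B cell markers summed to 4.60 and 5.25 FPKM in RFWD2 libraries 2 and 1, against 4.91 and 6.05 FPKM in control libraries 2 and 1, most of it CIITA and CD79A, with CD22 listed at 0.

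The 4 libraries differed more by their replicate number than by genotype. Log2 CPM, the log2 of counts scaled to library size, correlated at r = 0.95 between genotypes in the libraries numbered 2 and in those numbered 1, against r = 0.86 within the RFWD2 cells and 0.91 within the control cells (Pearson, across 9426 protein-coding genes averaging 1 FPKM or more). Mitochondrial genes took 4.96% and 7.46% of counts in RFWD2 libraries 2 and 1, against 4.27% and 7.68% in control libraries 2 and 1, and their part in the result was not tested. Whether a number marks a shared batch was not stated. The genes of break repair took part in this difference, and it ran with the base composition of their transcripts. To show what that composition means, the middle 90 bases of the longest coding exon are printed for 3 of the genes that were highest, and the 3 that were lowest, in the libraries numbered 2 relative to those numbered 1. The sequences are reference sequence of GENCODE release 29 on GRCh38, from ATR chr3:142562626-142562715 (minus strand, exon 4 of 47), TP53BP1 chr15:43456510-43456599 (minus strand, exon 12 of 28), BRCA2 chr13:32338686-32338775 (plus strand, exon 11 of 27), FANCG chr9:35075565-35075654 (minus strand, exon 10 of 14), FANCE chr6:35456005-35456094 (plus strand, exon 2 of 10) and MDC1 chr6:30704815-30704904 (minus strand, exon 10 of 15). Capitals mark G and C.
ATR: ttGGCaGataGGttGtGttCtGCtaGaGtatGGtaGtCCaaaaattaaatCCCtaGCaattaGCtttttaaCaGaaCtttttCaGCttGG
TP53BP1: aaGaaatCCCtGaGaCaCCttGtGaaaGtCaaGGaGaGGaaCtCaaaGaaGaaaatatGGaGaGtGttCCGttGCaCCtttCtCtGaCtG
BRCA2: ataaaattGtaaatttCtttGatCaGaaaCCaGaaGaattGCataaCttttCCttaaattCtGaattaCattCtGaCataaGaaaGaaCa
FANCG: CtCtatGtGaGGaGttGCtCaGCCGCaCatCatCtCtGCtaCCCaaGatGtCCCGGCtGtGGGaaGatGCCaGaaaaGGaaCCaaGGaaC
FANCE: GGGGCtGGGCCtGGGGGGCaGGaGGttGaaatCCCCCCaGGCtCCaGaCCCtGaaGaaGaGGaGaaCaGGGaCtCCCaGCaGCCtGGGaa
MDC1: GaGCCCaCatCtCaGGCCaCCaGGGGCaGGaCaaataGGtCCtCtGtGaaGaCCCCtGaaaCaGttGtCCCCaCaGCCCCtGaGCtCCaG

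G and C made up 36.7%, 43.3% and 25.6% of the stretches of ATR, TP53BP1 and BRCA2, and 53.3%, 65.6% and 60% of those of FANCG, FANCE and MDC1. Whole transcripts of the 37 genes ran from 36.2% GC in LIG4 to 62.5% in XRCC3, with a median of 42.8%, against a median of 49.6% over the 9426 protein-coding genes. They were also longer, with a median of 4666 against 3218 bases.

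No gene of the 37 passed the test of overexpression against wild type. The test was edgeR's quasi-likelihood test over 18873 genes, with a gene called at a Benjamini-Hochberg adjusted p under 0.05. It called 0 of the 37, beside 0% of all genes tested, and 0 of the 37 had an unadjusted p under 0.05, beside 346 of all genes (1.83%). DESeq2 and limma also called 0 of the 37. The fitted log2 fold changes ran from -0.41 for FANCC to 0.44 for LIG4, with a median of -0.05, against a median of 0.01 over all genes tested. The median rested on single libraries: it was 0.34 without RFWD2 library 1, -0.65 without RFWD2 library 2, -0.34 without control library 1 and 0.25 without control library 2. The test does not show that the levels were alike: for 24 of the 37 genes the 95% interval of the fold change took in both a 2-fold higher and a 2-fold lower level, and for 2 genes it lay within 2-fold both ways. This fit had no term for library number, so its intervals also hold the difference between numbers. With number as a block in edgeR, 1201 of 18873 genes and 0 of the 37 had an unadjusted p under 0.05. No intervals were taken from that fit.

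**Figure D1:**
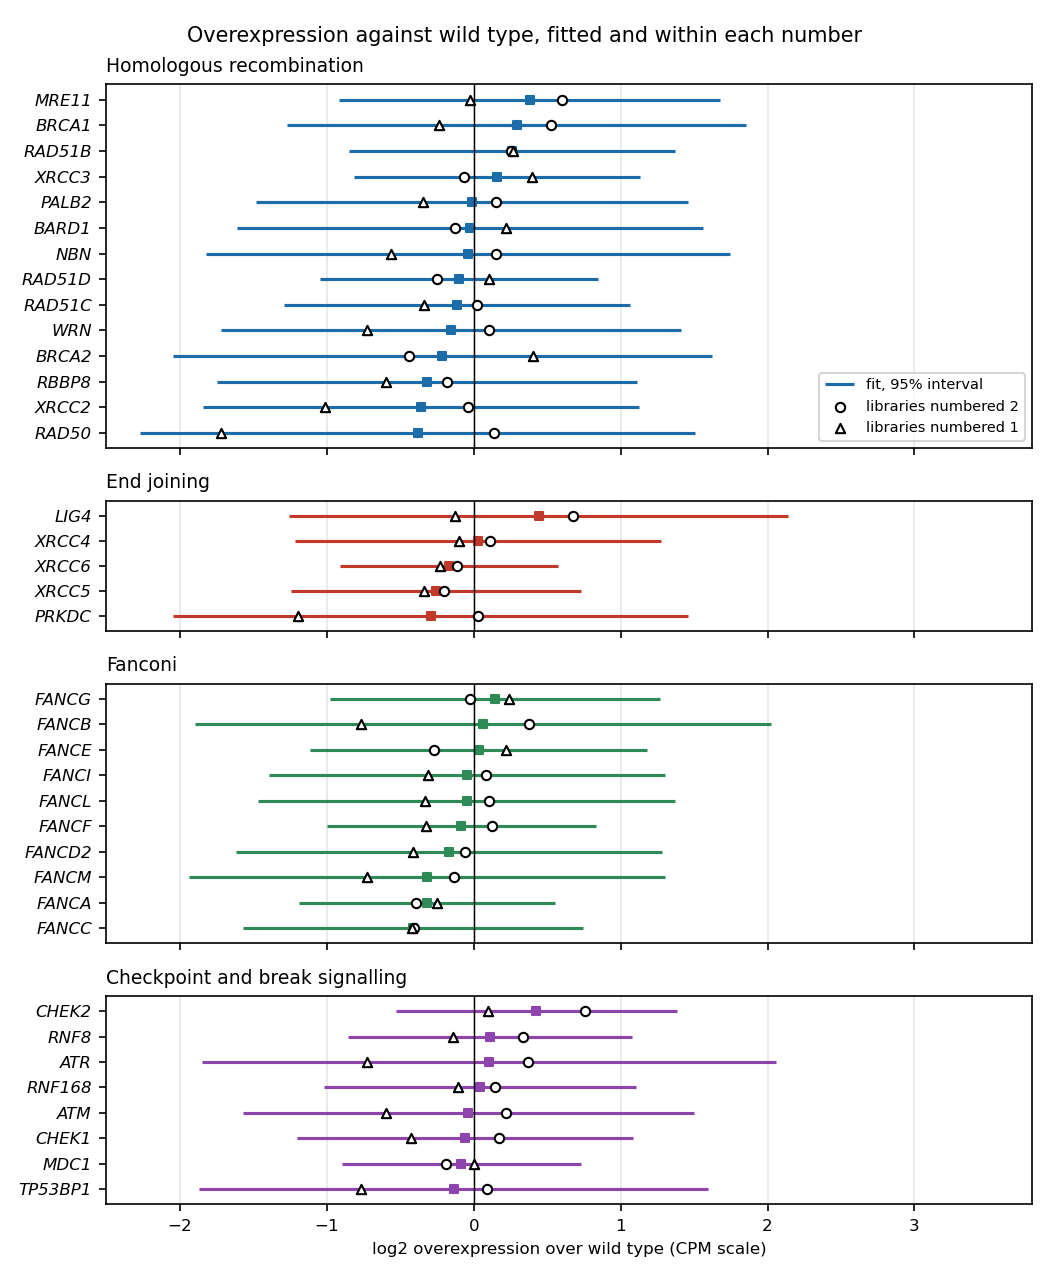
Difference in log2 CPM of overexpression over wild type for each gene. Squares and lines are the fitted value over all 4 libraries with its 95% interval, open circles the difference within the libraries numbered 2 and open triangles within those numbered 1. Every interval spans 0, and most triangles lie left of 0.

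Taken within each number, 29 of the 37 genes were lower with overexpression in the libraries numbered 1 and 15 in those numbered 2. Over all 18873 genes tested these counts were 9628 and 9315. On the log2 CPM scale the median difference within number 1 was -0.33, against a median of -0.01 over all genes tested. In the libraries numbered 2, the other 22 were higher with overexpression, and the median difference was 0.09 against 0.00 over all genes tested. Within both numbers 9 genes were lower and 2 higher, beside 5139 and 5069 of all 18873 genes tested. Each of these differences sets 1 library against 1 library and has no replicate check. Overexpression library 1 held the lowest level of all 4 libraries for 27 of the 37 genes, against 33.4% of all genes tested. Both RFWD2 libraries lay above both wild type libraries for 2 of the 37 genes (5.41%), CHEK2 and RAD51B, beside 10.7% of all genes tested. Both lay below for FANCA alone (2.70%), beside 10.6%. Over the 9426 protein-coding genes averaging 1 FPKM or more, these shares were 6.57% and 9.51%. By the coordinates of the deposited table, whose build is not named in its header and which start at the same base as GENCODE 29 (GRCh38) for these 3 genes, CHEK2 lies at chr22:28687743-28742422 (minus strand), RAD51B at chr14:67819779-68730218 (plus strand) and FANCA at chr16:89737549-89816655 (minus strand).

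**Figure D2:**
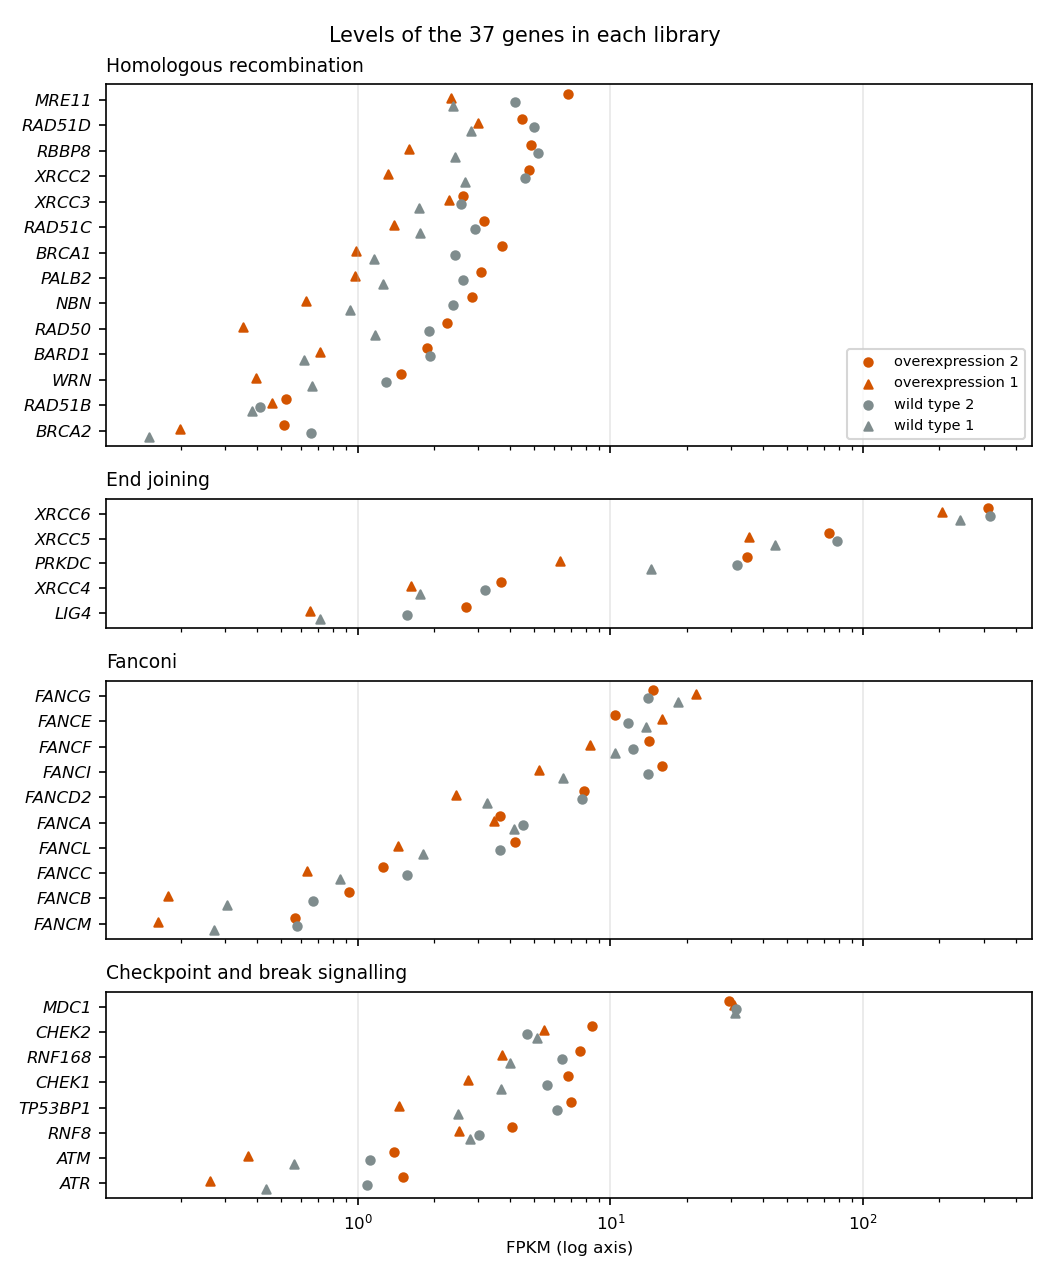
FPKM (log axis) of each of the 37 genes in RFWD2 libraries 2 and 1 and control libraries 2 and 1, by class. For most genes the circles (libraries numbered 2) lie right of the triangles (libraries numbered 1), while FANCG and FANCE show the opposite order and MDC1 stays between 29.4 and 31.4 FPKM.

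Among the genes of homologous recombination, those that sense and trim the broken end were expressed at a few FPKM. MRE11, the nuclease of the MRN complex, was at 6.81 and 2.33 FPKM in RFWD2 libraries 2 and 1, against 4.21 and 2.38 FPKM in control libraries 2 and 1. The overexpression libraries thus spanned the wild type ones. Its fitted log2 change was 0.38 ± 0.53 (SE; adjusted p = 1.0, edgeR), at 0.60 within number 2 and -0.02 within number 1. NBN, the subunit of MRN that recruits ATM, was at 2.84 and 0.627 FPKM in the RFWD2 cells, against 2.39 and 0.933 FPKM in the control cells. RBBP8 encodes CtIP, which starts the trimming together with MRN, and was at 4.87 and 1.60 FPKM in the RFWD2 cells, against 5.17 and 2.43 FPKM in the control cells. In both genes the 2 libraries of a genotype lay farther apart than the genotypes.

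RAD50, the ATPase of the MRN complex, differed most between genotypes within a number. It was at 2.25 and 0.353 FPKM in RFWD2 libraries 2 and 1, against 1.91 and 1.17 FPKM in control libraries 2 and 1, or log2 differences of 0.14 and -1.72 within numbers 2 and 1. The model AC116366 covers 79.7% of the exon bases of RAD50 on the same strand. AC116366 held 2 and 187 counts in RFWD2 libraries 2 and 1, against 1 and 8 in control libraries 2 and 1. Summed over both models the locus stood at 2.25 and 0.632 FPKM in the RFWD2 cells, against 1.91 and 1.18 FPKM in the control cells, and the difference within number 1 became -0.997.

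The mediators that load the recombinase had low levels. BRCA1 was at 3.74 and 0.988 FPKM in RFWD2 libraries 2 and 1, against 2.43 and 1.16 FPKM in control libraries 2 and 1. Its partner in the ubiquitin ligase dimer, BARD1, was at 1.89 and 0.713 FPKM in the RFWD2 cells, against 1.94 and 0.614 FPKM in the control cells. PALB2, which bridges BRCA1 and BRCA2, was at 3.09 and 0.980 FPKM in the RFWD2 cells, against 2.61 and 1.26 FPKM in the control cells. In all 3 genes both libraries numbered 2 lay above both numbered 1. BRCA2, which places the recombinase on single-stranded DNA, had the lowest mean of the 37 genes, at 0.513 and 0.199 FPKM in the RFWD2 cells, against 0.653 and 0.149 FPKM in the control cells. WRN, a helicase that unwinds repair intermediates, was at 1.48 and 0.396 FPKM against 1.29 and 0.661 FPKM.

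The 5 paralogs of the recombinase, which help it assemble, behaved unequally. XRCC2 was at 4.78 and 1.31 FPKM in RFWD2 libraries 2 and 1, against 4.59 and 2.66 FPKM in control libraries 2 and 1, a fitted log2 change of -0.36 ± 0.60 (SE; adjusted p = 1.0, edgeR), or -0.04 within number 2 and -1.01 within number 1. RAD51C, shared by both paralog complexes, was at 3.16 and 1.39 FPKM in the RFWD2 cells, against 2.91 and 1.77 FPKM in the control cells. RAD51D was at 4.46 and 3.002 FPKM in the RFWD2 cells, against 4.97 and 2.80 FPKM in the control cells. RAD51B was the one paralog with separate groups, at 0.523 and 0.460 FPKM with overexpression against 0.410 and 0.381 FPKM in wild type. Its fitted log2 change was 0.26 ± 0.45 (SE; adjusted p = 1.0, edgeR), with 0.25 and 0.27 within numbers 2 and 1. XRCC3 was at 2.62 and 2.30 FPKM in the RFWD2 cells, against 2.57 and 1.74 FPKM in the control cells. The exons of XRCC3 overlap those of KLC1 on the opposite strand over 76.7% of their bases, and the use of strand in counting was not stated, so reads of these genes cannot be told apart.

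End joining held the genes with the highest levels. XRCC6, which encodes Ku70, was the most abundant of the 37 genes, at 312 and 205 FPKM in RFWD2 libraries 2 and 1, against 317 and 242 FPKM in control libraries 2 and 1. Its fitted log2 change was -0.17 ± 0.30 (SE; adjusted p = 1.0, edgeR), with a 95% interval from -0.91 to 0.57. XRCC5, encoding its partner Ku80, came next, at 73.1 and 35.2 FPKM in the RFWD2 cells, against 79.0 and 44.7 FPKM in the control cells, a fitted log2 change of -0.26 ± 0.40 (SE; adjusted p = 1.0, edgeR). Ku70 and Ku80 work as a dimer, and XRCC6 FPKM exceeded XRCC5 FPKM by 4.27 and 5.83 times with overexpression and by 4.01 and 5.41 times in wild type. Both genes were lower with overexpression within each number, with log2 differences of -0.12 and -0.23 for XRCC6 and -0.21 and -0.34 for XRCC5 within numbers 2 and 1.

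PRKDC, which encodes the kinase DNA-PKcs, was at 34.6 and 6.32 FPKM in RFWD2 libraries 2 and 1, against 31.8 and 14.5 FPKM in control libraries 2 and 1. Within number 2 the genotypes were 0.03 apart on the log2 scale, and within number 1 the difference was -1.20. Downstream of Ku, the scaffold gene XRCC4 was at 3.68 and 1.63 FPKM in the RFWD2 cells, against 3.19 and 1.76 FPKM in the control cells. LIG4, the ligase it holds, was at 2.68 and 0.648 FPKM in the RFWD2 cells, against 1.57 and 0.711 FPKM in the control cells. Its fitted log2 change of 0.44 ± 0.69 (SE; adjusted p = 1.0, edgeR) was 0.67 within number 2 and -0.13 within number 1. For all 5 end joining genes both libraries numbered 2 lay above both numbered 1.

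The Fanconi genes differed in direction within their core complex, the ligase that marks FANCD2 and FANCI. FANCG was at 14.8 and 21.9 FPKM in RFWD2 libraries 2 and 1, against 14.1 and 18.5 FPKM in control libraries 2 and 1, and FANCE, which contacts FANCD2, had 10.4 and 16.1 FPKM in the RFWD2 cells, against 11.8 and 13.8 FPKM in the control cells. They were the only core genes with both libraries numbered 2 below both numbered 1. FANCL, the catalytic subunit, was at 4.20 and 1.45 FPKM in the RFWD2 cells, against 3.66 and 1.82 FPKM in the control cells. FANCB was at 0.929 and 0.178 FPKM against 0.664 and 0.305 FPKM. FANCF, an adaptor of the complex, was at 14.3 and 8.32 FPKM in the RFWD2 cells, against 12.2 and 10.5 FPKM in the control cells.

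FANCA, partner of FANCG in the core complex, was at 3.67 and 3.47 FPKM in RFWD2 libraries 2 and 1, against 4.52 and 4.15 FPKM in control libraries 2 and 1, or means of 3.57 ± 0.14 and 4.34 ± 0.26 (SD; n = 2 per genotype). Both RFWD2 libraries were thus below both controls. The fitted log2 change was -0.32 ± 0.35 (SE; adjusted p = 1.0, edgeR), at -0.39 within number 2 and -0.25 within number 1. The exons of FANCA overlap those of ZNF276 on the opposite strand over 23.6% of their bases, and the locus sum differed by 0.01 and -0.51 within numbers 2 and 1. FANCC was at 1.26 and 0.632 FPKM in the RFWD2 cells, against 1.57 and 0.853 FPKM in the control cells, a fitted log2 change of -0.41 ± 0.47 (SE; adjusted p = 1.0, edgeR), or -0.41 within number 2 and -0.42 within number 1. FANCM, the translocase that anchors the complex to DNA, was at 0.565 and 0.163 FPKM in the RFWD2 cells, against 0.578 and 0.271 FPKM in the control cells (fitted log2 change -0.32 ± 0.66, SE; adjusted p = 1.0, edgeR).

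The pair that receives the mark kept a similar ratio in every library. FANCD2 was at 7.89 and 2.44 FPKM in RFWD2 libraries 2 and 1, against 7.71 and 3.27 FPKM in control libraries 2 and 1. FANCI was at 15.998 and 5.21 FPKM in the RFWD2 cells, against 14.1 and 6.50 FPKM in the control cells. The ratio of FANCI to FANCD2 FPKM was 2.03 and 2.13 with overexpression and 1.84 and 1.99 in wild type, although each gene's level differed over 2-fold between libraries of a genotype. Their transcripts are alike in GC content (43.4% for FANCI and 44.0% for FANCD2) and near in length (4743 and 5219 bases). The part of base composition in this ratio was not tested.

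Among checkpoint genes, CHEK2, the kinase that ATM activates, was at 8.48 and 5.46 FPKM in RFWD2 libraries 2 and 1, against 4.68 and 5.12 FPKM in control libraries 2 and 1. Both RFWD2 libraries lay above both controls, but library 1 by little. The fitted log2 change was 0.42 ± 0.39 (SE; adjusted p = 1.0, edgeR), the smallest unadjusted p of the 37 genes at 0.32, and it was 0.76 within number 2 and 0.10 within number 1. CHEK1, the kinase below ATR, was at 6.78 and 2.73 FPKM in the RFWD2 cells, against 5.63 and 3.70 FPKM in the control cells. The upstream kinases were far lower per length. ATM was at 1.39 and 0.368 FPKM in the RFWD2 cells, against 1.12 and 0.561 FPKM in the control cells. ATR was at 1.51 and 0.262 FPKM in the RFWD2 cells, against 1.09 and 0.435 FPKM in the control cells, the widest mean gap between library numbers of the 37 genes.

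Of the factors that gather on chromatin beside a break, MDC1, which binds the marked histone H2AX, came after XRCC6 and XRCC5 in level. It was at 29.4 and 31.0 FPKM in RFWD2 libraries 2 and 1, against 31.4 and 31.1 FPKM in control libraries 2 and 1, so both RFWD2 libraries were lower by FPKM but not by log2 CPM (fitted log2 change -0.08 ± 0.33, SE; adjusted p = 1.0, edgeR). The ubiquitin ligase RNF8, which MDC1 recruits, was at 4.10 and 2.51 FPKM in the RFWD2 cells, against 3.04 and 2.77 FPKM in the control cells (fitted log2 change 0.11 ± 0.39, SE; adjusted p = 1.0, edgeR). RNF168, which extends the mark, was at 7.58 and 3.71 FPKM in the RFWD2 cells, against 6.44 and 4.01 FPKM in the control cells. TP53BP1, which encodes the reader 53BP1 that favours end joining, was at 7.01 and 1.47 FPKM in the RFWD2 cells, against 6.18 and 2.50 FPKM in the control cells. Its exons overlap those of TUBGCP4 on the opposite strand over 28.7% of their bases, and TUBGCP4 was at 4.23 and 1.66 FPKM against 3.87 and 1.92 FPKM. Shorter overlaps on the opposite strand touch FANCL (18.7%, with VRK2), ATR (16.4%, with AC109992) and FANCF (11.3%, with GAS2).

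Set by number instead of genotype, most of the 37 genes were higher in the libraries numbered 2. Both libraries numbered 2 lay above both numbered 1 for 28 of 37 genes on the log2 CPM scale, beside 32.8% of all genes tested, and below for 3 (FANCE, FANCG and MDC1), beside 30.6%. By FPKM, MDC1 did not separate by number, and RNF8, FANCF and XRCC3 also lay higher in both libraries numbered 2. The median log2 difference, number 2 minus number 1, was 0.96, with 1.06 in the overexpression libraries and 0.61 in the wild type libraries, against 0.04 over all genes tested. It was larger in the overexpression libraries for 28 of the 37 genes, beside 9762 of all 18873 genes tested. By class, both libraries numbered 2 were higher for 12 of 14 recombination genes, 5 of 5 end joining genes, 6 of 10 Fanconi genes and 5 of 8 checkpoint genes. These values are a description without a test. Scaled to library totals alone, all genes tested had medians of 0.36 and 0.26 in the overexpression and wild type libraries, the median of the 37 genes was 1.25, and the differences of MDC1 (-0.08 and 0.02 in RFWD2 and control cells), FANCA (0.07 and 0.13) and RAD51B (0.17 and 0.10) were no longer below 0 in both.

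The size of this difference ran with transcript GC content, both in the 37 genes and in the transcriptome. Across the 9426 protein-coding genes Spearman's rho of the difference with GC content was -0.76, and with transcript length 0.37. Across the 37 genes the values were -0.68 and 0.51. Genes of the same libraries are not independent, so no p is given. Among 5 equal bins of protein-coding genes by GC content, the median difference was 0.76 in the lowest (31.3% to 41.6%) and -0.74 in the highest (58.95% to 74.1%). The lowest bin held 15 of the 37 genes and the next 14, while the highest held XRCC3 alone. The difference of overexpression from wild type within number 1 also ran with GC content across protein-coding genes (rho = 0.40), and less so within number 2 (rho = -0.16). The part of base composition in the levels of these genes was not tested beyond a correction, in which each library was centred on its median in 20 bins of GC content. After it, the median difference between numbers was 0.36 over the 37 genes and 0.01 over all genes with a GC value, both libraries numbered 2 lay above for 20 of 37 genes, beside 26.2% of all genes with a GC value, and the median difference of overexpression from wild type was -0.01 within number 2 and -0.21 within number 1.

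**Figure D3:**
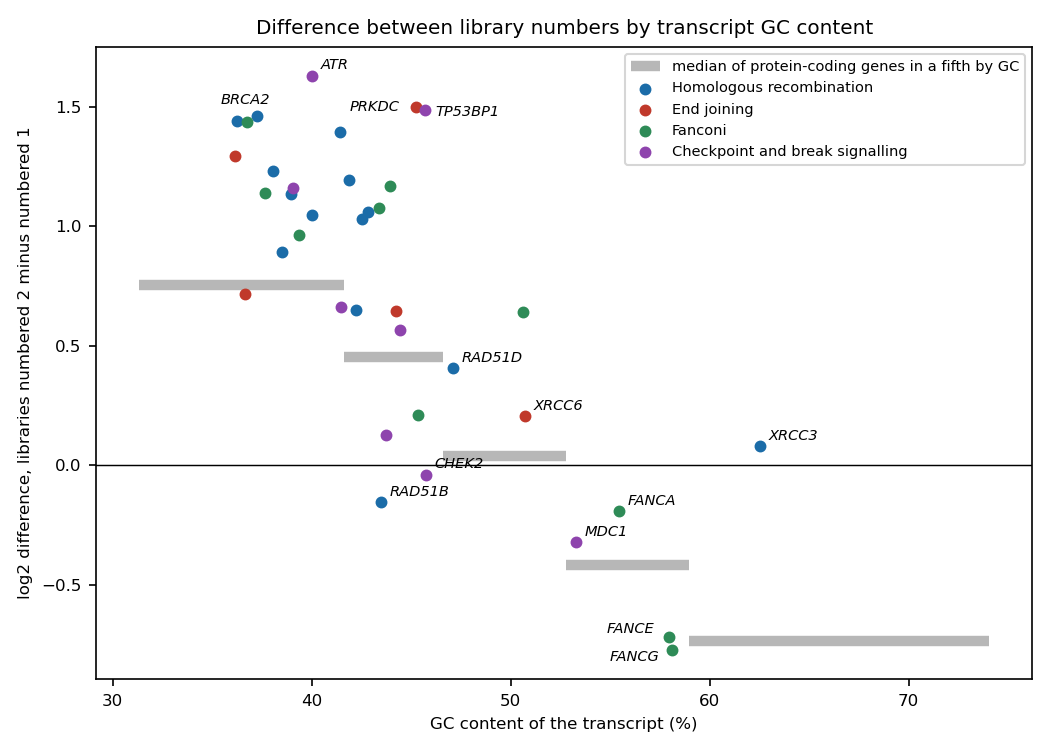
Difference in log2 CPM between libraries numbered 2 and numbered 1 (mean of both genotypes) against the GC content of the longest coding transcript. Points are the 37 genes by class, and grey bars are medians of protein-coding genes in 5 equal bins of GC content, which go from 0.76 at low to -0.74 at high GC content. Of the 37 genes, the 28 that were higher in both libraries numbered 2 lie at 50.7% GC or less.

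Genes of the same pathways beyond the 37 gave no call either. The 84 further genes, in 4 lists, held 0 called higher and 0 called lower by edgeR, and 0 had an unadjusted p under 0.05. Of 29 further recombination genes, both RFWD2 libraries lay below both controls for 8, beside the 10.6% of all genes tested given above. That count is on the log2 CPM scale and rests on its scaling, since by FPKM the genotypes overlap in all 8. The smallest unadjusted p-values belonged to BRCC3, a deubiquitinase of the BRCA1-A complex, at 1.14 and 0.402 FPKM in RFWD2 libraries 2 and 1 against 2.07 and 0.928 FPKM in control libraries 2 and 1, the resolvase gene GEN1, at 2.48 and 0.489 against 0.505 and 0.830 FPKM, and the annealing factor gene RAD52, at 2.51 and 1.58 against 3.82 and 2.05 FPKM. GEN1 was high in overexpression library 2 alone.

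Among 15 further end joining genes, those with the smallest unadjusted p-values included the ligase gene LIG3 (5.45 and 3.89 FPKM in RFWD2 libraries 2 and 1 against 6.97 and 4.30 FPKM in control libraries 2 and 1) and the gap-filling polymerase gene POLL (5.88 and 8.09 against 4.40 and 5.89 FPKM). Among 16 further Fanconi genes the smallest belonged to the translesion polymerase gene REV3L (1.05 and 0.302 against 1.11 and 0.573 FPKM), the nuclease gene ERCC4 (1.83 and 0.686 against 2.03 and 1.02 FPKM) and FAAP24 (3.86 and 3.33 against 3.86 and 2.30 FPKM). Among 24 further checkpoint genes they belonged to CDC25B, a phosphatase that drives entry into mitosis (25.01 and 31.9 against 20.6 and 24.1 FPKM), the clamp gene HUS1 (2.50 and 1.47 against 3.56 and 1.54 FPKM) and L3MBTL1 (0.434 and 0.756 against 0.434 and 0.483 FPKM). CDC25B separated the genotypes by FPKM but not by log2 CPM.

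Many repair genes are expressed with the cell cycle, so proliferation lists were set beside the 37 genes. Of 36 S phase genes, 21 were higher in both libraries numbered 2, with a median difference between numbers of 0.49, and of 26 genes of G2 and mitosis 18 were, with a median of 0.46, against 28 of 37 and 0.96 for the break repair genes and 32.8% and 0.04 for all genes tested. After the correction for GC content these medians were 0.30 and 0.09, against 0.36. Within number 1 the S phase genes had a median difference of overexpression from wild type of -0.36 and the G2 and mitosis genes 0.07. Within number 2 the medians were 0.02 and 0.21. On the log2 CPM scale both RFWD2 libraries lay below both controls for 7 of the 36 S phase genes (19.4%), beside 10.6% of all genes tested. They lay above both for 0, beside 10.7%. For the 26 genes of G2 and mitosis these counts were 0 and 0. Of these lists edgeR called 0 genes and 0 had an unadjusted p under 0.05. The part of proliferation in the levels of the repair genes was not tested, and in bulk RNA fewer cycling cells and less RNA per cell cannot be told apart.

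**Figure D4:**
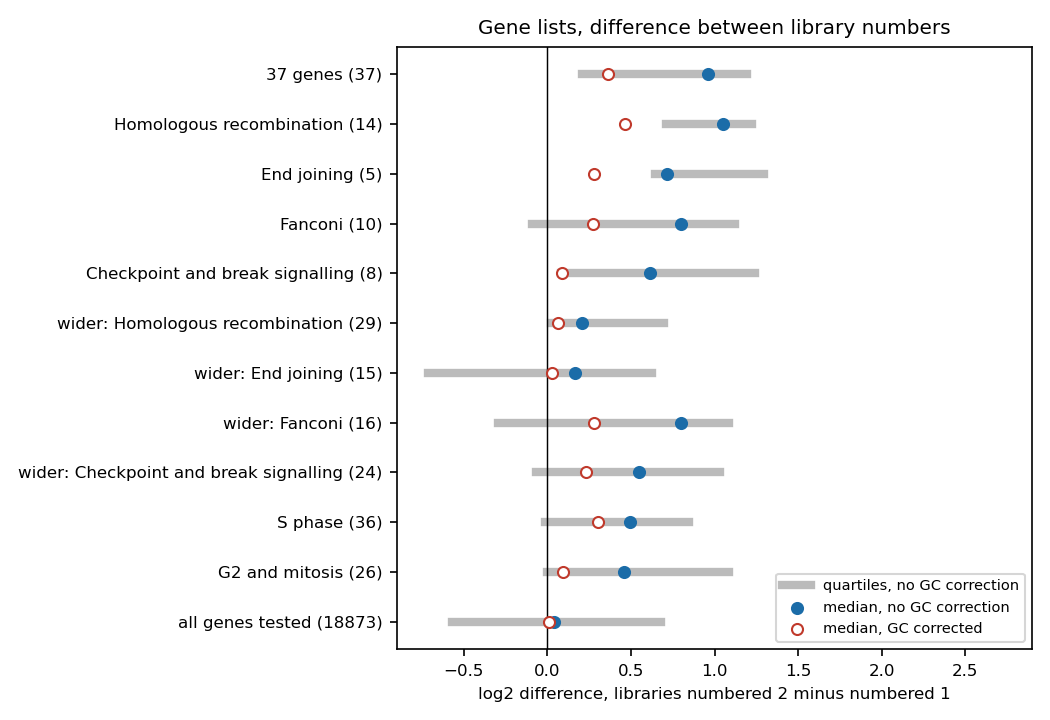
Median log2 difference between libraries numbered 2 and numbered 1 for each gene list (number of genes tested in brackets). Filled points and grey bars are medians and quartiles without correction, and open points are medians after correction for GC content, which are 0.36 for the 37 genes, against 0.96 without it, and 0.01 for all genes with a GC value, against 0.04 for all genes tested without it.

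Promoters were searched for sequence words of cell cycle control, since many repair genes are known targets of E2F factors. RefSeq windows (250 bases before to 50 after the start, GRCh38.p14) were held for 32 of the 37 genes, without FANCI, NBN, PRKDC, WRN and XRCC5. Each of these genes had a single window, so its other starts were not searched. For BRCA1, FANCE and FANCM the end of the window was not matched to a GENCODE transcript. The BRCA1 window, chr17:43170278-43170577 (minus strand), lies wholly before the gene, which ends at 43170245 in the deposited table. Starts within the BRCA1 gene were therefore not searched. The E2F words searched on both strands were TTTCCCGC, TTTGGCGC, TTTGCCGC and TTTCGCGC. They were found in 5 of the 32 windows (15.6%), against 3.31% of 35116 windows, which were not matched for GC content. The CCAAT box was found in 14 (43.8%, against 34.6%), and the words TTTGAA or TTCGAA of the CHR element in 3 (9.38%, against 16.4%). The 6 E2F words lay at FANCD2 chr3:10026424-10026453, XRCC2 chr7:152676102-152676131, FANCC chr9:95317737-95317766, FANCC chr9:95317863-95317892, FANCA chr16:89816801-89816830 and XRCC6 chr22:41621315-41621344, the FANCA, FANCC and XRCC2 windows on the minus strand and the others on the plus strand. Each site is printed with its flanks, 30 bases in the direction of the gene, with the E2F word or its reverse complement in capitals.
FANCD2: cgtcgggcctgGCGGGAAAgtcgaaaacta
XRCC2: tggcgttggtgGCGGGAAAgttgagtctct
FANCC: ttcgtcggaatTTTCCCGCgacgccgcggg
FANCC: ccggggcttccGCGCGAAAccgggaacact
FANCA: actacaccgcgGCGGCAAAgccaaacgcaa
XRCC6: tgtccaagttggtcgcttccctGCGCCAAA

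For the 5 genes that hold an E2F word, the log2 CPM difference of number 2 from number 1 was 1.17 for FANCD2, 1.03 for XRCC2, 0.64 for FANCC, 0.20 for XRCC6 and -0.19 for FANCA. FANCA turns with the scaling, at 0.07 and 0.13 in RFWD2 and control cells by library totals and 0.18 after the correction for GC content, and on those scales all 5 genes were higher in the libraries numbered 2. A match is a description of these letters and not a bound site.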

How the data were processed

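Poly(A)-selected RNA of 4 libraries was sequenced as paired ends, per the labels' protocols. The protocol text also mentions adipose RNA. The authors deposited whole-number counts and FPKM per gene, per the file headers. The deposited counts may be estimated counts, because 35.4% to 35.95% of counts from 1 to 19 were multiples of 4. They were tested as deposited, and a fit on counts divided by 4 was an alternative. The deposited FPKM value 0.0001, which stood beside a count of 0 in all but 5 cells, was set to 0. Per the submitters' processing notes the tools were Bowtie 0.12.2, HISAT2 2.0 and StringTie 1.3.0, with no role given, and the build mm8 (mouse), while the rows are human genes, 99.5% of them in GENCODE 29. Counting tool and strand use were not stated. Counts were tested with edgeR 4.0.16 (TMM, filterByExpr, quasi-likelihood F test, no block, two-sided, Benjamini-Hochberg over 18873 genes) in R 4.3.3. The test was also run on simulated counts. These held no difference by library number or GC content, so they do not check the test under such differences. SE is the fold change over the root of F. Differences within numbers use log2 CPM with a prior count of 2. DESeq2 1.42.0 and limma 3.58.1 were alternatives. GC content is of the longest coding transcript per gene. Printed coding stretches are the 3 highest and 3 lowest differences between numbers after PRKDC and NBN were passed over. The members, lists and tests were chosen with earlier results of these data known. All 37 genes were described, all passed the filter, and fitted values were printed for the 3 of each class with the smallest unadjusted p, as were levels of the 3 of each further list, except 1 end joining gene that is not reported here. The GC analysis was chosen after the data were seen. No permutation test was used, since 2 against 2 libraries cannot pass a threshold of 0.05.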

Additional observations from a re-analysis of the deposited data

How the results depend on the processing

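With 2 libraries a group, the count of called genes depended on the setting while none of the 37 genes was called under any setting run. Over all genes edgeR called 0, and 0 with RLE size factors, with a GC correction and on counts divided by 4, and limma called 0, while DESeq2 called 55 and edgeR without a filter called 8. Leaving out 1 library gave 73 to 183 calls. The median log2 fold change of the 37 genes was -0.05. It ran from -0.65 without overexpression library 2 to 0.34 without overexpression library 1. Such fits mix library numbers unequally and leave 1 library in a group, and the parts of these cannot be told apart. With replicate number as a block (replicate block) edgeR called 0 genes, 0 of the 37, at a median of -0.12, or -0.10 with the GC correction as well. Libraries of the same number deviated together (r = 0.41 across genes), which with 2 numbers does not show pairing. Of 12 fitted genes, CHEK2 (0.25 to 0.62), FANCA (-0.46 to -0.19), FANCC (-0.77 to -0.06), RAD51B (0.17 to 0.34) and XRCC6 (-0.30 to -0.05) kept their sign without each library, while FANCM (-1.22 to 0.23), LIG4 (-0.65 to 1.05), MDC1 (-0.31 to 0.11), MRE11 (-0.34 to 0.86), RNF8 (-0.080 to 0.28), XRCC2 (-1.31 to 0.21) and XRCC5 (-0.65 to 0.059) did not. No fit with all 4 libraries changed a sign among these 12. The median difference between numbers was 0.96, but 0.61 in wild type alone and 0.36 with the GC correction, which was chosen after seeing the data.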

Other observations

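After the correction for GC content the largest differences between libraries numbered 2 and numbered 1 among the 37 genes were 1.18 for PRKDC, 1.16 for TP53BP1, 0.85 for ATR and 0.84 for XRCC3 on the log2 scale, and the lowest was -0.62 for RAD51B. XRCC3 stood at 0.08 before the correction, and its exons overlap KLC1. The correlation with transcript length given above was of the difference before the correction. PRKDC, TP53BP1 and ATR have long transcripts, of 13509, 10384 and 8249 bases, while that of XRCC3 has 3018. The other transcripts longer than that of ATR stood at 0.75 for RAD50, 0.65 for BRCA2, 0.38 for ATM and 0.21 for RAD51D after the correction. The largest and lowest values were picked after they were seen, and the cause was not tested.

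Some ratios within the Fanconi core complex differed between libraries. FANCG FPKM exceeded FANCA FPKM by 4.03 and 6.30 times in RFWD2 libraries 2 and 1, and by 3.11 and 4.46 times in control libraries 2 and 1. FANCE exceeded FANCB by 11.2 and 90.3 times with overexpression and by 17.7 and 45.4 times in wild type. The ratio of 90.3 rests on 48 counts of FANCB in RFWD2 library 1. The FANCB transcript is 36.7% GC and that of FANCE 57.9%, and the part of base composition in these ratios was not tested.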
